A study of Homo sapiens with 4 samples.

Results

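The ligands and receptors of the VEGF and angiopoietin systems were followed in Meg-01, an established human megakaryoblastic leukemia cell line, after knockdown of the transcription factor GATA1. The 10 genes, of 30499 gene names on the array, were the receptors KDR, FLT1, NRP1, TEK and TIE1 and the ligands VEGFA, VEGFB, VEGFC, ANGPT1 and ANGPT2. Every non-control probe on the array that carries the name of one of these genes was taken, and probes of the same gene were kept apart. This gave 23 probes on 32 spots, of 41000 probes on 43376 spots. The study asked which genes change when GATA1 is knocked down in megakaryocytic leukemia cells.

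The knockdown cells, GATA1 5-13 and GATA1 4-14, were Meg-01 cells infected with a GATA1 shRNA lentivirus and selected in puromycin, and each is 1 clone picked from soft agar. The control, GATA1 Neg, was not a clone but a pool of Meg-01 cells infected with a lentivirus for a non-targeting shRNA. Cultures received no drug treatment that the labels name. RNA of each clone was hybridized against GATA1 Neg RNA on 2 two-colour Agilent arrays, with the knockdown RNA in the red dye on array 1 and in the green dye on array 2. Every ratio below has the knockdown RNA over the control, and a clone's 2 arrays are technical repeats of 1 biological replicate (n = 2 clones). GATA1 Neg was the control on all 4 arrays, so the clones share it and its own spread was not measured. A difference between a clone and GATA1 Neg can also come from picking 1 cell, which cannot be told apart from the knockdown within a clone. On the 4 arrays, 61.6% to 66.4% of spots were well above background in a channel, 0 were saturated and 0 member spots had an outlier mark. The extraction text of the labels names clones of CMK, another megakaryoblastic line, whereas all other labels and the study's methods name Meg-01.

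VEGF ligands signal through receptor tyrosine kinases, of which KDR (VEGFR2) carries most of the signal for proliferation and migration in endothelial cells. FLT1 (VEGFR1) binds VEGFA and VEGFB and often acts as a decoy, and NRP1 is a co-receptor that presents VEGFA to KDR. TEK (TIE2) is the receptor of the angiopoietins, with ANGPT1 as its agonist and ANGPT2 as a context-dependent antagonist, and TIE1 is a related receptor that modulates TEK. Megakaryocytes and platelets are a known store of VEGF and of ANGPT1, and TEK, TIE1 and KDR are also found on hematopoietic stem and progenitor cells.

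The targeted gene was measured by 1 probe in all 4 arrays. The log2 ratio of GATA1 was -0.21 and -0.34 in GATA1 5-13 and -0.43 and -0.58 in GATA1 4-14. The clones thus held 82.7% and 70.6% of the GATA1 Neg level by this probe. The study also reported less GATA1 transcript by real-time RT-PCR and less GATA1 protein by Western blot in both clones. Those measures were not used here, and this 1 probe need not give the size of the knockdown. The direction follows the labels on all 4 arrays, but the mean of -0.39 (SD between clones 0.16, n = 2) had an adjusted p of 0.61 by limma, the linear-model test used for every gene here with Benjamini-Hochberg adjustment over 40974 probes.

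The regions upstream of the starts of the genes below are shown because these genes were lower in both clones by at least 1 measured probe. From RefSeq's table for GRCh38.p14, 7 promoter entries for 6 of the 10 genes were searched. Each run is the 250 bases before a start, written 5′ to 3′ on the strand of the gene, with capitals for the motif searched on both strands. This was the core of the hypoxia response element, through which genes such as VEGFA answer to low oxygen, and which is CGTG with A or G before it. The regions lie at chr4:55125596-55125845 for KDR (minus strand), chr9:27108975-27109224 for TEK (plus strand), chr1:43300732-43300981 for TIE1 (plus strand), chr11:64234334-64234583 for VEGFB (plus strand) and chr4:176792923-176793172 for VEGFC (minus strand).
KDR upstream: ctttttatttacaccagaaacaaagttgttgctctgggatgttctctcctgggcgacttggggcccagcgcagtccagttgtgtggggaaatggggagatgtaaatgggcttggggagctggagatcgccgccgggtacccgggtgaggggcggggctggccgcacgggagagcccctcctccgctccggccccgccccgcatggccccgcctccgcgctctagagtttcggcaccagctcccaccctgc
TEK upstream: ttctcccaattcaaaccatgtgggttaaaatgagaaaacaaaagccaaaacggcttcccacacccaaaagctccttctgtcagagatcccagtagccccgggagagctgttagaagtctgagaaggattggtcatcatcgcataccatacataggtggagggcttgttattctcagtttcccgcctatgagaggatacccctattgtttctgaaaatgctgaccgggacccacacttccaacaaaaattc
TIE1 upstream: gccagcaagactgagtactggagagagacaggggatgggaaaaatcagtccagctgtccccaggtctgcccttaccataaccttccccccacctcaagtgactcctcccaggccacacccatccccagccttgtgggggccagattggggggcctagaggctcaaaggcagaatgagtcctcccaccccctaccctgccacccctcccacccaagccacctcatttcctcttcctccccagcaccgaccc
VEGFB upstream: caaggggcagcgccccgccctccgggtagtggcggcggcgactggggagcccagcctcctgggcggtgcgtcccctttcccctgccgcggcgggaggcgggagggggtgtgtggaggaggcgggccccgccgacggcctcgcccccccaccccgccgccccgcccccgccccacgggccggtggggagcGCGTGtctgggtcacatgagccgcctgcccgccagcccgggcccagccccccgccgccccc
VEGFC upstream: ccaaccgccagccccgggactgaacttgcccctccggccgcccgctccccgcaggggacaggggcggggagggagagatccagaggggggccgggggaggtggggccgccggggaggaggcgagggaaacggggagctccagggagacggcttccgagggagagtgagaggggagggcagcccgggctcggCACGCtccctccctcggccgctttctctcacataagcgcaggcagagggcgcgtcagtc

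The hypoxia core was found in 3 of the 7 entries, of VEGFC, VEGFB and FLT1, and in 43.2% of all 35116 promoters over the same length. The region upstream of KDR, the gene with the lowest ratios, did not hold it. These matches are a description of letters and were not tested for binding. VEGFA and NRP1 had no entry, and ANGPT1 and ANGPT2 were left out of the member search. The 7 entries thus need not be all those of the member genes, and their share was not tested against that of all promoters.

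KDR had the lowest ratios of the members in both clones. Its first probe, A_24_P71973 (hg18 chromosome 4, 55640154 to 55640213), had log2 ratios of -2.64 and -2.67 in GATA1 5-13 and of -1.39 and -1.32 in GATA1 4-14. The clones held 15.9% and 39.0% of the GATA1 Neg level, and the arrays of the clones did not overlap. In normalised intensity, GATA1 Neg lay between 1143 and 1179 on the 4 arrays, GATA1 5-13 at 187 and 185 and GATA1 4-14 at 446 and 457. The mean log2 ratio was -2.01 (SD between clones 0.92, n = 2), with a 95% confidence interval of -3.19 to -0.83, an unadjusted p of 0.012 and an adjusted p of 0.58 by limma. The second KDR probe, A_23_P58419, spans 5031 bases of the genome between 55643555 and 55648585, which places an intron between its ends. Its log2 ratios were -2.10 and -2.19 in GATA1 5-13 and -1.24 and -1.18 in GATA1 4-14. In GATA1 5-13 it was not well above background, so the clone is given as at least 4.33-fold lower than GATA1 Neg under the main background correction. For this, the level of a dim RNA was set no lower than the lowest signal that counts as above background on its array. A dim RNA with a signal above that level kept its own signal. The mean of this probe was -1.68 (SD 0.66, n = 2; adjusted p = 0.56 by limma). Without background correction the means were -1.31 and -0.81, so the size of the KDR difference depended on that step and its direction did not.

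**Figure D1:**
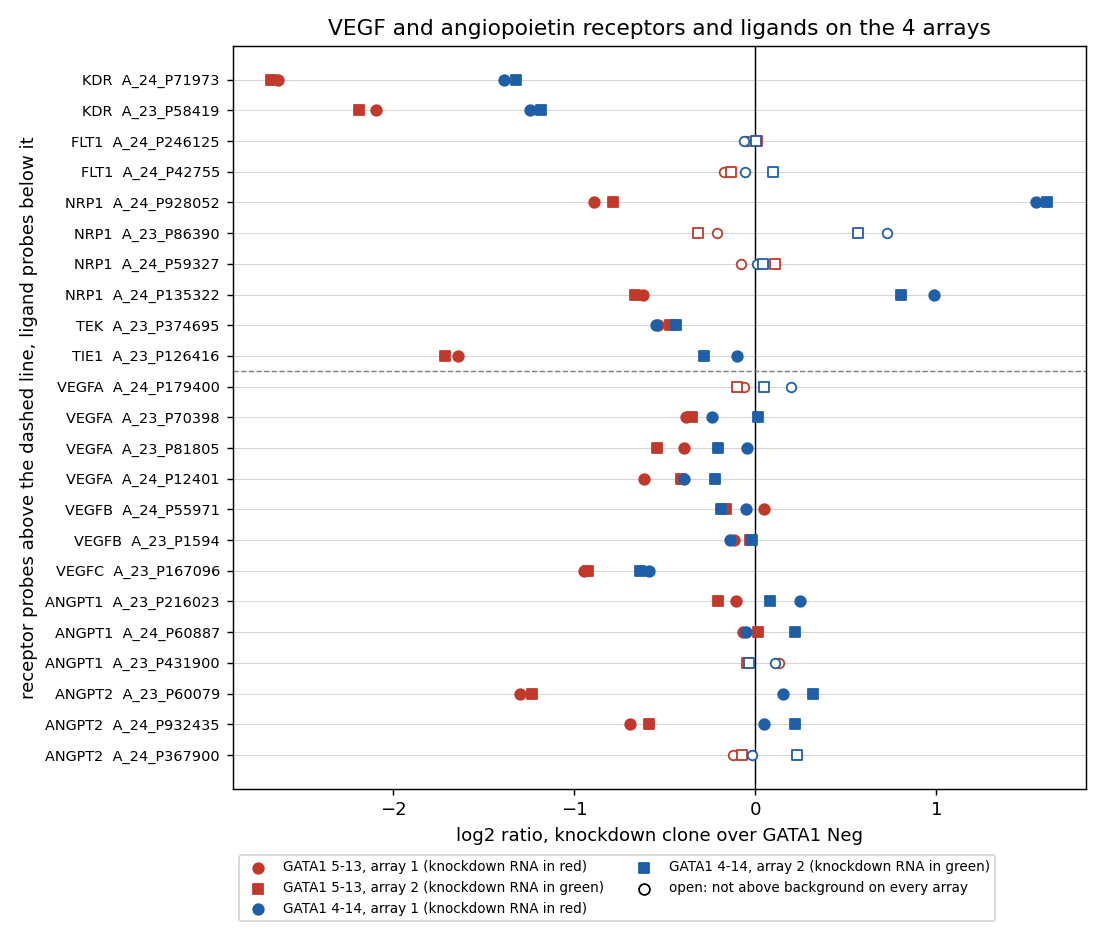
Log2 ratio of knockdown over GATA1 Neg for each of the 23 member probes on the 4 arrays, with red points for GATA1 5-13, blue for GATA1 4-14, circles for array 1 and squares for array 2. Filled points are probes well above background on every array in at least 1 RNA. The filled red and blue points lie on opposite sides of 0 for NRP1, ANGPT2 and ANGPT1 A_23_P216023.

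FLT1 was not measured. Both of its probes, A_24_P246125 and A_24_P42755 on chromosome 13, were below background in both RNAs on all 4 arrays, with normalised intensities of 67.6 to 102.3, so no ratio is given for the receptor.

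NRP1 differed in direction between the clones. Probe A_24_P928052 (chromosome 10, 33506942 to 33507001) had log2 ratios of -0.89 and -0.78 in GATA1 5-13 and of 1.55 and 1.61 in GATA1 4-14. Its intensity was 291 and 309 in GATA1 5-13, 1545 and 1629 in GATA1 4-14 and 527 to 541 in GATA1 Neg. GATA1 4-14 thus held 299% of the control level and GATA1 5-13 held 55.9%. Probe A_24_P135322, which spans 5729 bases from 33536628 to 33542356, gave -0.62 and -0.66 in GATA1 5-13 and 0.99 and 0.81 in GATA1 4-14. Probe A_23_P86390 gave -0.21 and -0.32 against 0.73 and 0.57. The RNA of GATA1 5-13 was not above background on either array, and GATA1 Neg was above it on 1 of the 2 arrays of each clone. This probe therefore does not fix the size of a difference in GATA1 5-13. The fourth probe, A_24_P59327, was below background throughout. Probes A_24_P928052 and A_24_P135322, above background in both RNAs, put the clones on opposite sides of GATA1 Neg. Their means of the 2 clones were 0.37 and 0.13, with adjusted p of 0.92 and 0.96 by limma. A mean of this kind describes neither clone.

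TEK was lower by nearly the same amount in both clones. Its probe A_23_P374695 (chromosome 9, 27220070 to 27220129) had log2 ratios of -0.54 and -0.47 in GATA1 5-13 and of -0.55 and -0.44 in GATA1 4-14. Intensities were 954 to 1003 in the clones and 1355 to 1412 in GATA1 Neg, without overlap, and the clones held 70.5% and 71.0% of the control. The mean was -0.50 (SD between clones 0.0070, n = 2), with a 95% confidence interval of -0.67 to -0.33. The standard error behind this interval, 0.053, was moderated over all probes and is not the spread of these 2 clones alone. With an unadjusted p of 0.0024 by limma, TEK was the 1 measured member probe past the study's unadjusted threshold of 0.005, and its adjusted p was 0.49. Of all 40974 probes tested, 0.574% were lower and 0.327% higher at that threshold, and 0% passed an adjusted p of 0.05. Among the 24751 measured probes, 221 were lower and 130 higher at the unadjusted threshold.

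TIE1 was low in GATA1 5-13, whereas its ratios in GATA1 4-14 were near 0. Probe A_23_P126416 (chromosome 1, 43560915 to 43560974) had log2 ratios of -1.64 and -1.71 in GATA1 5-13 and of -0.10 and -0.29 in GATA1 4-14. The intensities were 560 and 547 in GATA1 5-13, 1637 and 1535 in GATA1 4-14 and 1749 to 1872 in GATA1 Neg. GATA1 5-13 held 31.2% of the control level and GATA1 4-14 held 87.5%. The mean of -0.94 (SD 1.05, n = 2) had a 95% confidence interval of -2.28 to 0.41 and an adjusted p of 0.71 by limma.

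**Figure D2:**
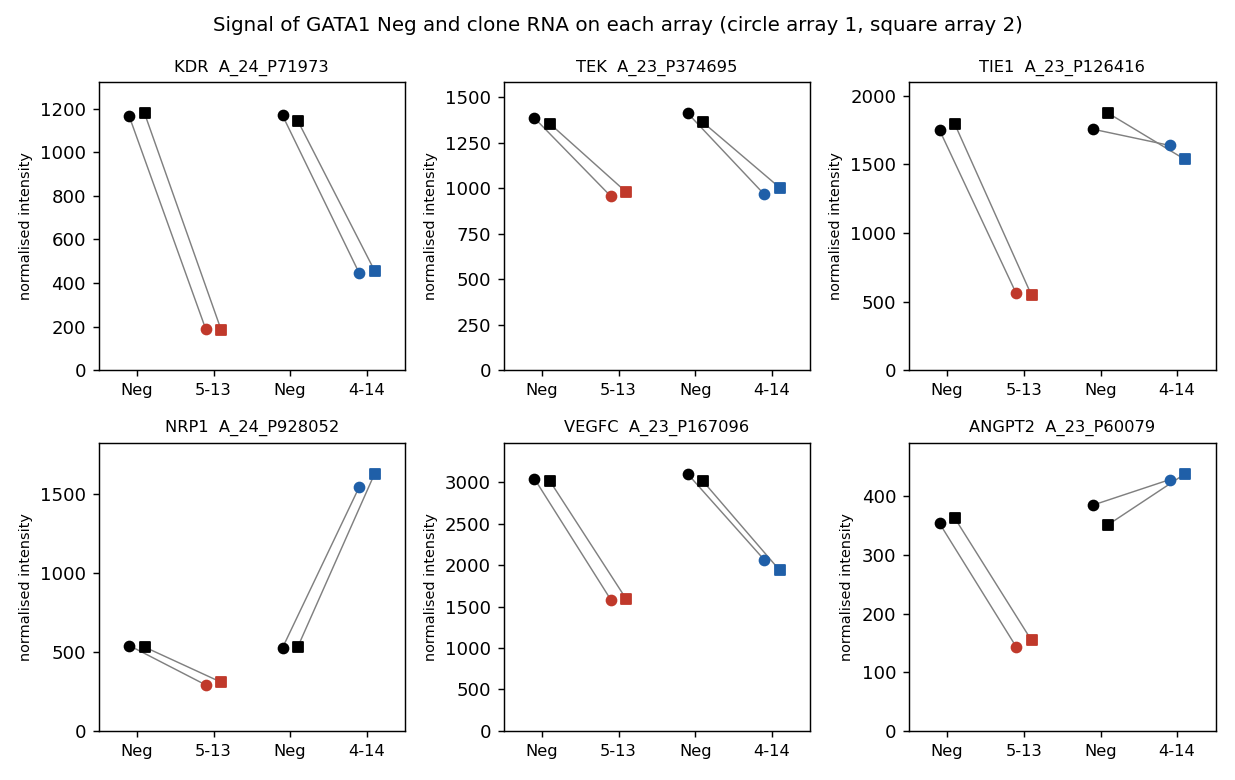
Normalised intensity of GATA1 Neg RNA (black) and clone RNA (red for GATA1 5-13, blue for GATA1 4-14) for 6 probes, with lines joining the RNAs of an array, circles for array 1 and squares for array 2. KDR, TEK and VEGFC are below GATA1 Neg in both clones, TIE1 mainly in GATA1 5-13, and NRP1 is above it in GATA1 4-14 and below it in GATA1 5-13; each panel has its own scale from 0.

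Among the ligands, VEGFC, which acts mainly through FLT4 on lymphatic endothelium and also binds KDR, was below GATA1 Neg on all 4 arrays. Probe A_23_P167096 (chromosome 4, 177841817 to 177841876) had log2 ratios of -0.95 and -0.93 in GATA1 5-13 and of -0.59 and -0.64 in GATA1 4-14. Intensities were 1579 and 1588, then 2063 and 1938, against 3011 to 3099 in GATA1 Neg, again without overlap. The mean was -0.77 (SD 0.23, n = 2), with a 95% confidence interval of -1.11 to -0.44, an unadjusted p of 0.0051 and an adjusted p of 0.56 by limma.

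VEGFA, the main ligand of KDR and a gene induced by hypoxia, was read by 4 probes on chromosome 6. The probe at 43861489 to 43861548 (A_24_P12401) gave -0.62 and -0.41 in GATA1 5-13 and -0.39 and -0.22 in GATA1 4-14. Its mean was -0.41 (SD 0.14, n = 2; unadjusted p = 0.013, adjusted p = 0.58 by limma). Probe A_23_P81805 was printed on 10 spots and gave -0.39 and -0.55 against -0.05 and -0.21. The SD among its 10 spots of an array was 0.027 to 0.052, and the arrays of a clone differed by up to 0.16. Probe A_23_P70398, which spans 412 bases, gave -0.38 and -0.35 in GATA1 5-13 but -0.24 and 0.02 in GATA1 4-14, with a mean of -0.24. The last, A_24_P179400, was below background in both RNAs. The 3 measured probes were thus lower in both clone means, by sizes of 0.24 to 0.41 on the log2 scale.

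VEGFB, a ligand of FLT1, lay close to the control. Its probes had means of -0.09 (A_24_P55971) and -0.08 (A_23_P1594), with 95% confidence intervals of -0.27 to 0.09 and -0.24 to 0.09. Both intervals include 0.

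ANGPT1, the agonist of TEK, was near GATA1 Neg. Probe A_23_P216023 gave -0.11 and -0.21 in GATA1 5-13 and 0.24 and 0.08 in GATA1 4-14. Probe A_24_P60887 gave clone means of -0.03 and 0.08, with arrays of both signs in each clone, and A_23_P431900 was below background. ANGPT2 had low ratios in GATA1 5-13 and ratios above 0 in GATA1 4-14. Probe A_23_P60079 gave -1.30 and -1.23 in GATA1 5-13 and 0.15 and 0.32 in GATA1 4-14, at intensities of 143 and 154, 428 and 438, and 351 to 385 in GATA1 Neg. GATA1 5-13 held 41.6% of the control level and GATA1 4-14 held 118%. A second ANGPT2 probe, A_24_P932435, gave -0.69 and -0.59 against 0.05 and 0.22. The RNA of GATA1 5-13 was not well above background there, so this clone was at least 1.28-fold lower than GATA1 Neg under the main background correction. The third, A_24_P367900, was below background. The means over both clones, -0.52 and -0.25, became -0.22 and -0.07 without background correction and -0.84 and -1.02 with the scanner program's own ratios. The adjusted p of the ANGPT1 and ANGPT2 probes with a measured ratio was 0.80 to 0.997 by limma.

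A probe was counted as measured when at least 1 of the RNAs was well above background on every array, which held for 16 of the 23 member probes and 24751 probes of the array. Of the 16, 10 were lower in both clones, 0 were higher in both and 6 lay on opposite sides. Of all measured probes, 30.8% were lower in both, 28.3% higher in both and 40.9% on opposite sides. On all 4 arrays, 8 of the 16 were lower and 0 were higher, beside 17.3% lower and 15.8% higher among all measured probes. The 8 were both KDR probes and probes of TEK, TIE1, VEGFA (2), VEGFB and VEGFC. They came from 6 genes and the same 3 RNAs, and are not independent. The median of the mean log2 ratio was -0.28 over the 16 member probes and -0.01 over all measured probes. No member passed an adjusted p of 0.05 by limma (0 of 16), and 5 had an unadjusted p under 0.05, all lower, beside 6.04% of all measured probes lower and 4.98% higher at that threshold. An error-weighted mean of the scanner program's log ratios, which takes the error of each spot but not the spread between the clones, called 8 of the 16 lower at an adjusted p of 0.05. Over all 40974 probes, measured or not, it called 4.42% lower and 4.2% higher, and the share over measured probes alone is not given. These 8 were both KDR probes, TEK, TIE1, 2 of VEGFA, VEGFC and ANGPT2 A_23_P60079. Of the members outside the 16, NRP1 A_23_P86390 was called higher by it.

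The clones were far apart in several members. The absolute difference between the clone means had a median of 0.33 over the 16 member probes and 0.15 over all measured probes, and the gap between the 2 arrays of a clone was at most 0.27 in any measured member. NRP1 A_24_P928052 ranked 26 of 24751 by size of this difference. NRP1 A_24_P135322 ranked 157, ANGPT2 A_23_P60079 ranked 165, TIE1 ranked 171 and KDR A_24_P71973 ranked 252. TEK was at the other end of the order, with 96.3% of probes showing a larger difference. On all 4 arrays, the clones were on opposite sides for 5 of the 16 member probes, beside 18.7% of all measured probes. With 1 replicate a clone, no difference between the clones was tested.

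**Figure D3:**
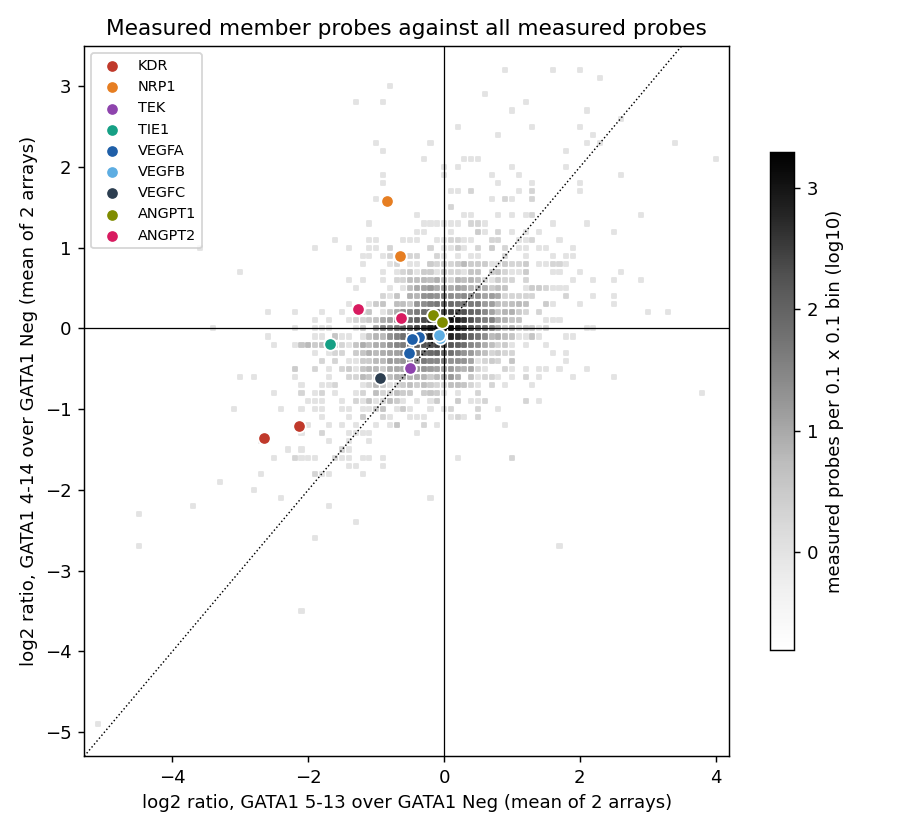
Mean log2 ratio over GATA1 Neg of GATA1 5-13 (x axis) and GATA1 4-14 (y axis), with the 24751 measured probes counted in grey bins and the 16 measured member probes in colour by gene. KDR, VEGFC, TEK, TIE1, VEGFA and VEGFB lie to the lower left of the crossing lines. NRP1, ANGPT2 and ANGPT1 lie to the upper left, with ANGPT1 near the crossing. The dotted line marks equal ratios, and both axes share GATA1 Neg.

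Other genes of these pathways were taken from 5 lists, with the measured probes of a gene averaged. Of 18015 measured genes, 30.5% were lower and 28.6% higher in both clones, 0.866% were lower and 0.555% higher at an unadjusted p of 0.005, and the median of the mean log2 ratio was -0.01. Among 8 measured other ligands, receptors and co-receptors, 3 were lower and 3 higher in both clones, and the median was 0.09. PLXND1, a receptor of class 3 semaphorins in vessels, was 0.60 in GATA1 5-13 and 0.57 in GATA1 4-14, and was the 1 gene of the 5 lists past an unadjusted p of 0.005 (unadjusted p = 0.0028, adjusted p = 0.29 by limma). SEMA3E, the ligand of PLXND1, was 2.16 and 0.59, with a mean of 1.37 (adjusted p = 0.57 by limma).

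Of 35 measured genes of receptor signalling, 8 were lower and 11 higher in both clones, with a median of -0.03. The lowest was SH2D2A, an adaptor that binds KDR, at -0.82 and -0.44 (mean -0.63, adjusted p = 0.44 by limma). The 8 measured oxygen sensing genes had 1 lower and 2 higher (5 lower and 3 higher of 13 probes where probes were kept apart), with EGLN1, a prolyl hydroxylase that marks HIF for degradation, at -0.93 and -0.22. Of 12 measured hypoxia-inducible genes, 4 were lower and 2 higher, with DDIT4, an inhibitor of mTOR signalling, at -0.66 and -0.30 and BNIP3, a mitochondrial stress protein, at 0.35 and 0.43. The 9 measured antagonists and angiogenesis inhibitors had 5 lower and 3 higher, and their means lay between -0.24 and 0.21. No gene of these 5 lists passed an adjusted p of 0.05 by limma.

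**Figure D4:**
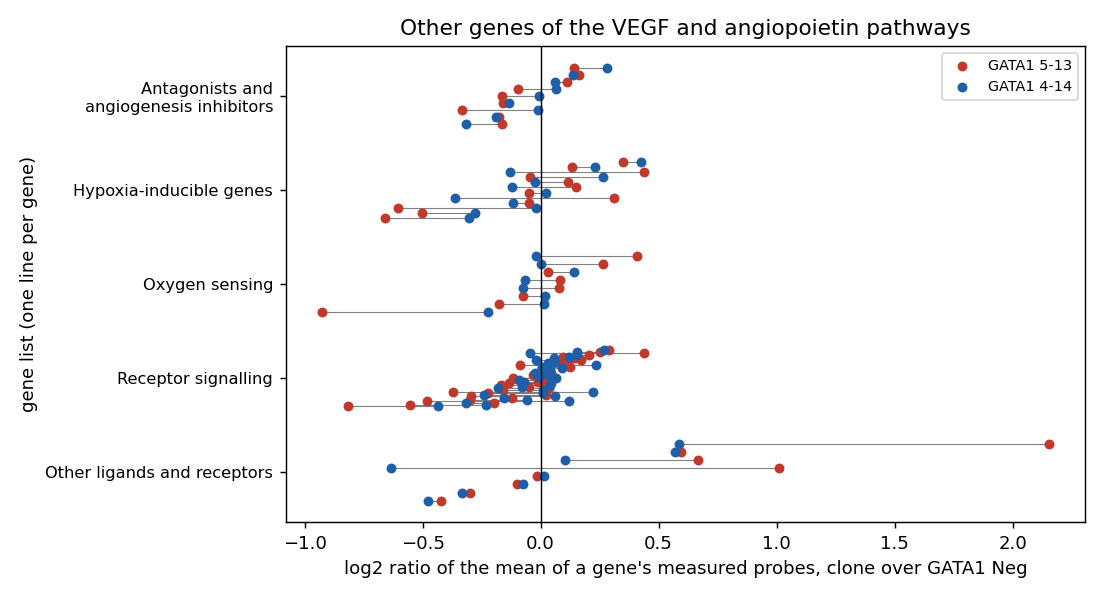
Log2 ratio over GATA1 Neg of the measured genes of 5 lists, one line per gene, with GATA1 5-13 in red and GATA1 4-14 in blue. Most genes lie within 0.5 of 0 in both clones, and SEMA3E reaches 2.16 in GATA1 5-13.

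Meg-01 is not an endothelial line, and VEGF and angiopoietin receptors are best known from endothelium, so markers were read beside them. Of 12 endothelial markers, 6 were measured, and CDH5, VWF, CLDN5, EMCN, ROBO4 and SELE were not well above background on all arrays. Of the 6, 4 were lower and 1 was higher in both clones. Beside this count and those of the other marker lists, 30.5% of 18015 measured genes were lower and 28.6% higher in both clones. The lists hold few genes, and their counts were not tested against these shares. ESAM, an adhesion molecule also found on megakaryocytes and platelets, was -0.91 and -0.95 (unadjusted p = 5.1e-04, adjusted p = 0.17 by limma). The summed intensity of the measured endothelial markers was 57980 to 63198 in GATA1 Neg, 50811 to 54834 in GATA1 5-13 and 51741 to 56752 in GATA1 4-14. Of 14 megakaryocyte markers, 7 were measured, 4 lower and 0 higher in both clones, and PF4 and PPBP were not measured. Their sum was 17680 to 18683 in GATA1 Neg, 13710 to 14033 in GATA1 5-13 and 16090 to 16474 in GATA1 4-14. GP1BA, the platelet receptor for von Willebrand factor, was -1.68 in GATA1 5-13 and -0.16 in GATA1 4-14, beside -1.68 and -0.19 for TIE1. Of 6 stem and progenitor markers, 3 were measured, 2 lower and 0 higher in both clones, with a sum of 20648 to 22846 in GATA1 Neg, 18507 to 19374 in GATA1 5-13 and 15237 to 15786 in GATA1 4-14. CD34, a marker of progenitors and endothelium, was -3.32 and -2.17 (unadjusted p = 0.0011, adjusted p = 0.21 by limma). Of 12 erythroid markers, 10 were measured, 2 lower and 0 higher in both clones, with a sum of 257744 to 475964 in GATA1 Neg, 530367 to 533952 in GATA1 5-13 and 289104 to 422992 in GATA1 4-14. These sums weigh the brightest probes most and need not follow any 1 marker, and the erythroid sum of GATA1 Neg itself varied widely between arrays. The part of these markers in the member results was not tested. Fewer cells with a transcript and less of it in each cell cannot be told apart in such bulk RNA.

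The genes with the pattern most like that of KDR A_24_P71973 over the 4 arrays, by Euclidean distance of the log2 ratios among 18003 probes, were HSH2D (-2.51 and -1.58), NPR3 (-2.31 and -1.47) and NLRC3 (-2.67 and -1.80). NRP1 A_23_P86390 was to be compared in the same way, but its GATA1 5-13 RNA was not above background and its neighbours are not given. For NRP1 A_24_P928052, which was above background in both RNAs and was added after its values were seen, they were EPHA8 (-0.43 and 1.45), TMEM159 (-0.58 and 1.11) and SET (-1.10 and 1.06), at distances of 0.62 to 0.83.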

How the data were processed

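Gene expression was measured on 4 Agilent 4 x 44K whole human genome arrays on 1 slide. The deposited files are the scanner tables written by Agilent Feature Extraction (version 9.5.3.1), with hg18 probe positions. The mean spot and median background intensities were deposited by the authors without normalization. The deposited log10 ratios are that program's own, and the values of the authors' series-wide table are those log10 ratios with the sign set to knockdown over GATA1 Neg. Their deposited errors went into the error-weighted mean. Marks deposited by the authors gave the spots above background and the outliers.

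Log2 ratios were then made from the intensities in R 4.3.3 with limma 3.58.1 (version 1.17.8 of data.table read the files): normexp (offset 50) on all 45015 spots, loess within each array, outlier spots left out, spots of a probe averaged, the 2 arrays of a clone averaged. Limma's moderated test compared the mean of the 2 clones with 0. It was two-sided, and p-values were adjusted over 40974 probes by Benjamini-Hochberg. The call threshold was 0.05, beside the study's unadjusted 0.005. Intensities by RNA were taken after loess and Aquantile, and single probes' levels were not set against each other. Marker lists were summed over probes within an RNA. No hg18 annotation was used, so exon and UTR positions are not given. Precision is limited by the number of clones (n = 2). The p-values rest on the spread of the 2 clones after limma moderated it toward the spread over all probes.

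The members and lists were chosen with earlier results of these data known. Named beside the members were GATA1, the 3 largest falls and rises of the 5 lists with 1 sign on all 4 arrays, the 3 nearest probes of KDR and NRP1, and markers. ESAM, GP1BA and CD34 were named after their values were seen. The code was tested on simulated data. The study's Rosetta Resolver output and ChIP-on-chip experiment were not used here, and a search for a second promoter motif is not reported here. Alternatives were other background correction, normalization, ratios, filters, moderation, the 4 arrays as 4 values, an error-weighted mean, and each array and clone left out.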

Additional observations from a re-analysis of the deposited data

Results flagged for a closer look

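Clones on opposite sides of GATA1 Neg on both of their arrays drew attention for 5 measured probes, and none of these differences was tested, since each clone is 1 replicate. The log2 ratio of GATA1 5-13 minus that of GATA1 4-14 was -2.42 for NRP1 A_24_P928052 and -1.54 for NRP1 A_24_P135322. It was -1.50 for ANGPT2 A_23_P60079, -0.78 for ANGPT2 A_24_P932435 and -0.32 for ANGPT1 A_23_P216023. For ANGPT2 A_24_P932435 the RNA of GATA1 5-13 was not well above background, so the size of that difference is not fixed. GATA1 5-13 was the lower clone in all 5. Of all measured probes, 18.7% had clones on opposite sides in this way.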

How the results depend on the processing

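The mean of the 2 clones kept its direction in every measured probe of KDR, TEK, TIE1, VEGFA, VEGFB and VEGFC under each of the 17 alternatives, of which 6 left these means as they were and the series-wide values repeat the Feature Extraction ratios. KDR ranged from -2.66 to -1.31 (A_24_P71973) and from -2.59 to -0.81 (A_23_P58419), the smallest values without background correction. ANGPT1 A_23_P216023 turned to -0.00067 under median centring. With an array or a clone left out, NRP1 ranged from -0.84 to 1.58 (A_24_P928052) and from -0.64 to 0.90 (A_24_P135322), ANGPT1 from -0.16 to 0.16 (A_23_P216023) and from -0.041 to 0.095 (A_24_P60887), and ANGPT2 from -1.27 to 0.24 (A_23_P60079) and from -0.64 to 0.14 (A_24_P932435).

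With an array left out, 2 to 3 measured members passed an unadjusted p of 0.005 against 1 of 16 with all arrays, 0 to 1 probes of the array passed the adjusted threshold against 0, and 0 to 1 members were higher in both clones. Median centring gave 2 members past 0.005 and 1 higher in both. With probes kept apart in place of gene means, 5 of 13 oxygen sensing probes were lower and 3 higher, against 1 and 2 of 8 genes. The limit to bright probes gave 3 members past 0.005 and the intensity trend 4, each with 1 probe of the array past the adjusted threshold. At 0.005, the probes of the array lower in the clones numbered 235, against 148 without background correction and 134 with the Feature Extraction log ratios or the series-wide values. The 4 arrays as 4 values without a replicate block gave 1238 lower, 971 higher and 1240 past the adjusted threshold, with 5 members past either threshold. The same fit with the replicate block gave 1021 lower, 755 higher and 269 adjusted, with 5 members past 0.005 and 1, TEK, past the adjusted threshold. The numbers share only the dye orientation, and same-numbered arrays deviated together (correlation 0.77). The error-weighted mean gave 1857 lower, 1772 higher and 3531 adjusted, with 8 members past either threshold. In the last 3 fits arrays or spots stand as replicates in place of clones, and the cause of the other shifts was not tested. Signals below background kept FLT1, NRP1 A_23_P86390 and A_24_P59327, and single probes of VEGFA, ANGPT1 and ANGPT2 from being measured. For NRP1 A_23_P86390 this held on 1 array of GATA1 5-13 only, and the RNA of GATA1 4-14 was above background on both of its arrays.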
